A study of Homo sapiens with 2 samples.

Results

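Peaks at the ends of long noncoding RNA (lncRNA) genes that stand apart from protein-coding genes numbered 979 of the 26351 autosomal peaks recovered with a TCF4 antibody, 3.72% of them (95% Wilson interval 3.49 to 3.95%). The complete list held 26642 peaks. A peak belonged to the set when its summit, the position of highest signal, lay within 1000 bp of either end of a RefSeq lncRNA record and over 5000 bp from every end of a protein-coding record. The rule used position only, so the height, depth and width of the peaks did not enter it. The 979 summits lay at the ends of 935 lncRNA records, and 54 of them lay within reach of more than 1 record, so neighbouring peaks can share a record and peaks are not replicates.

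The series mapped genomic DNA in CAL-27 cells grown as spheres, with 1 library recovered with a TCF4 antibody and 1 library recovered with IgG as the control. CAL-27 is an established human cell line that came from a squamous carcinoma of the tongue, and spheres are a culture form used to favour stem-like tumour cells. No other treatment or genetic change is given for either library. The peak list came from the TCF4 library. IgG values were not analysed here, so TCF4 binding sites could not be told apart from peaks that do not need this antibody.

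LncRNA genes are transcribed by RNA polymerase II but yield RNAs without a known protein product. Their starts carry promoters like those of protein-coding genes, though usually weaker ones and less often in CpG islands, and some act as enhancers of neighbouring genes. The name TCF4 is used both for an E protein, a basic helix-loop-helix factor that binds E-box sites, and for TCF7L2, which binds TCF/LEF sites as a partner of beta-catenin in Wnt signalling, and which of these proteins was targeted is not stated in the labels.

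The promoter windows that follow show the DNA under some of these summits. Each runs from 250 bases before to 50 bases after a start in the RefSeq promoter table (GRCh38.p14), reads 5′ to 3′ along the transcript, and holds the summit of a member peak with no protein-coding start within 1000 bp. The first 3 belong to the strongest such peaks and the other 4 to lncRNAs known for their functions. Capitals mark E-box letters (CANNTG) and AP-1 letters (TGANTCA).
SSH2-AS1: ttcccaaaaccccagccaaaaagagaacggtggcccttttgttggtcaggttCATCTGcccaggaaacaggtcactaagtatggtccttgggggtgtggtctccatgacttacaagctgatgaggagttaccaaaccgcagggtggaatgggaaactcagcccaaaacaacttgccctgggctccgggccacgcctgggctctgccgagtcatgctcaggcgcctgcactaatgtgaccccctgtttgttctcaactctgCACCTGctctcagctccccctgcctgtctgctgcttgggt
LOC124905136: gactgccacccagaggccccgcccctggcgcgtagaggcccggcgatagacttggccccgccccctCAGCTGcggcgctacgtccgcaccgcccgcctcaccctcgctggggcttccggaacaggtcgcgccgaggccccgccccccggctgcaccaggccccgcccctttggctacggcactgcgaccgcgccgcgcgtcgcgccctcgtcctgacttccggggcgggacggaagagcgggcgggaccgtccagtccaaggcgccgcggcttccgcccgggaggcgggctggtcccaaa
LINC01271: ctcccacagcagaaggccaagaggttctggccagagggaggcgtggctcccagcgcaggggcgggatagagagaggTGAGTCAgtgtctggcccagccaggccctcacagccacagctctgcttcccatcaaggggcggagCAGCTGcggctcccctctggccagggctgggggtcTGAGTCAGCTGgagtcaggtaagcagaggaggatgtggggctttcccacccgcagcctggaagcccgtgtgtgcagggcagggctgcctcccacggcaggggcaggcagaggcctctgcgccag
MALAT1: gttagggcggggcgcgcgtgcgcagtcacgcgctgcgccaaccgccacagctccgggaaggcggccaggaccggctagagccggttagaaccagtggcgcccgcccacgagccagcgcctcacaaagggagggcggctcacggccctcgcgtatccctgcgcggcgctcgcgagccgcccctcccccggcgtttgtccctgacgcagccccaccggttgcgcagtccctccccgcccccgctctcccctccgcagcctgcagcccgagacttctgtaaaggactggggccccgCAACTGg
NORAD: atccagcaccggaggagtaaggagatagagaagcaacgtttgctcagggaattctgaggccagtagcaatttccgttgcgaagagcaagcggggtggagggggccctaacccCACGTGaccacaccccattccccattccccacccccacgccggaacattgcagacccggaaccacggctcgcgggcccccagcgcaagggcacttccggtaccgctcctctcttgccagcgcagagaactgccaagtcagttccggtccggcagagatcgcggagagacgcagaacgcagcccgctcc
SNHG5: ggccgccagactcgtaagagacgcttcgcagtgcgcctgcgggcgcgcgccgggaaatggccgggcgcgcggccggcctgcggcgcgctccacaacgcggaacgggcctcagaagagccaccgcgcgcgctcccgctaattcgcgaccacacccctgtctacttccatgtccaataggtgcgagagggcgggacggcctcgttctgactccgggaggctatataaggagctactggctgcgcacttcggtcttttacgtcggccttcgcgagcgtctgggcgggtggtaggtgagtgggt
DLEU2: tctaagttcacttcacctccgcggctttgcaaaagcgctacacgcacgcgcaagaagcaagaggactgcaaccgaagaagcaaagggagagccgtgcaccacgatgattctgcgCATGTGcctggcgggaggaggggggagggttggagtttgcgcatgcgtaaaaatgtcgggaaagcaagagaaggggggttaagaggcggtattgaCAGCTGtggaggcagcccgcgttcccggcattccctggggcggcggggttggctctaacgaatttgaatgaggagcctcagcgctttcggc
SSH2-AS1 is at chr17:29639251-29639550 on the plus strand, LOC124905136 at chr22:46035860-46036159 on the plus strand and LINC01271 at chr20:50321293-50321592 on the minus strand. MALAT1 is at chr11:65497488-65497787 on the plus strand, NORAD at chr20:36050911-36051210 on the minus strand, SNHG5 at chr6:85678684-85678983 on the minus strand and DLEU2 at chr13:50081992-50082291 on the minus strand. The DLEU2 window is that of its second listed start, overlaps the DLEU1 promoter window on the other strand, and holds the summit of the peak at the DLEU1 end. The windows differ in composition: G+C made up 56.3% of the SSH2-AS1 window with 6 CpG dinucleotides, and 77.0% of the LOC124905136 window with 42 CpG. E-box letters were present in 6 of the 7 windows and absent from the SNHG5 window. They were also absent from the windows of LOC107985767 and HCP5, which were chosen in the same way but are not printed. Of all promoters, 68.9% hold E-box letters. AP-1 letters were found at 2 places in the LINC01271 window and in none of the other 6, and 1 of these matches overlaps an E-box. None of the 7 windows holds the TCF/LEF letters ATCAAAG on either strand. A match is a description of the letters and does not show binding.

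The deposited list gives for each peak a fold enrichment, the ratio of fragments at the summit to a local background, with a p-value and a q-value from the peak caller. The number of fragments and the background were solved from the fold and the p, since the fold is (fragments + 1) / (background + 1). The 979 peaks rested on 5 to 89 fragments at the summit, and 535 of them (54.6%) on 10 or fewer. The library's total number of fragments is unknown here. With 1 library there is no replicate check and no test between antibodies, and the 95% intervals given here cover counting error only.

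Peaks at lncRNA ends were intermediate in median height. Their median fold was 5.26 (5.098 to 5.35), against 5.81 (5.74 to 5.88) for the 8451 peaks within 1000 bp of protein-coding ends. The 13708 remote peaks, over 5000 bp from coding ends and over 1000 bp from lncRNA ends, had a median fold of 4.89 (4.86 to 4.92). The 3 intervals do not overlap, but the medians are close, and the middle 50% of lncRNA-end peaks spanned folds of 4.39 to 6.63. The highest peaks did not follow the order of the medians. Of the 100 autosomal peaks of highest fold, 68 were remote, against 52.0% of all autosomal peaks, and 25 lay at coding ends, against 32.1%. LncRNA ends held 4 of the 100, against 3.72% of all. The median of the lncRNA-end peaks was below that of coding-end peaks on 20 of 22 autosomes and above that of remote peaks on 16 of 22.

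Depth and width followed the same order. The summit held a median of 10 fragments at lncRNA ends, against 12 at coding ends and 8 at remote peaks, and the median width was 186 bp (177 to 196) at lncRNA ends, against 242 bp and 154 bp. The lncRNA-end median width was below that of coding ends on 20 chromosomes and above that of remote peaks on 21. The local background moved in the same way, with a median of 0.972 fragments at lncRNA ends, against 1.09 at coding ends and 0.780 at remote peaks; its part in the differences of depth was not tested.

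Strong peaks were about as frequent among lncRNA-end peaks as in the whole list. A −log10 q of at least 5 was reached by 420 lncRNA-end peaks, 42.9% (39.8 to 46.0%), against 41.0% of all autosomal peaks. At a −log10 q of at least 10 the count was 153, 15.6% (13.5 to 18.0%), against 16.3% of all autosomal peaks. A fold of at least 10 was reached by 54 lncRNA-end peaks, 5.52%, against 5.68% of all. These shares near the background describe no departure of lncRNA ends from the list as a whole, which mixes the 57.3% of coding-end peaks and the 30.9% of remote peaks that reach a −log10 q of 5.

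**Figure D1:**
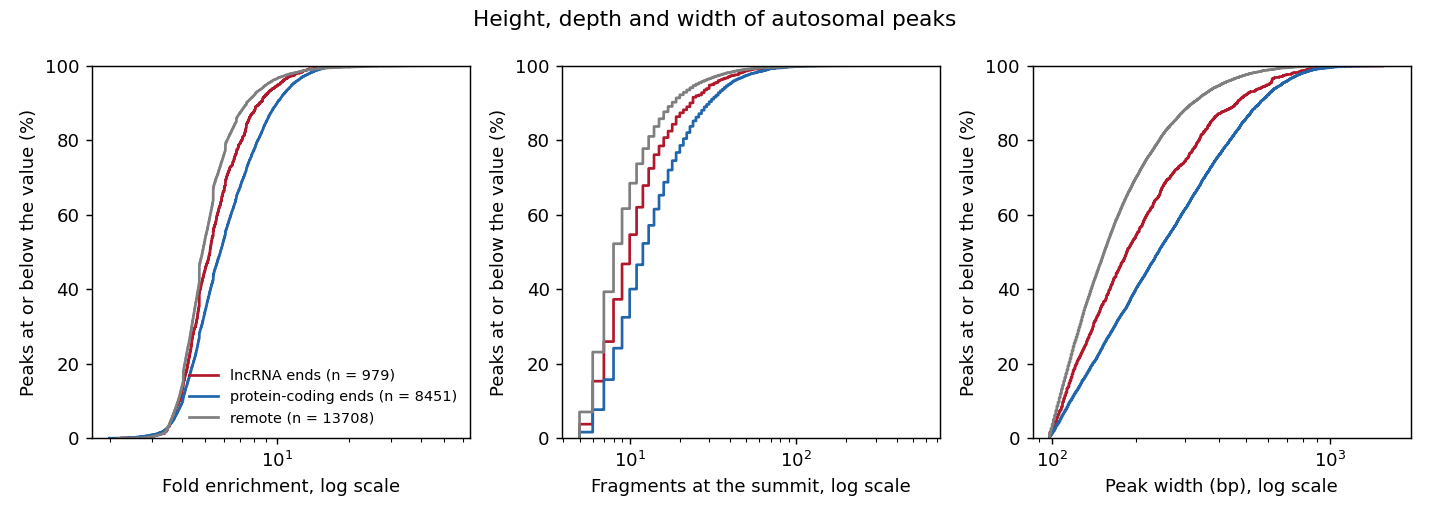
Cumulative share of autosomal peaks (vertical axes, %) at or below a fold enrichment (left), a number of fragments at the summit (middle) and a width in bp (right), all on log axes, for lncRNA ends (n = 979), protein-coding ends (n = 8451) and remote peaks (n = 13708). The lncRNA-end curve lies between the other two in most of each panel, with median folds of 5.26 at lncRNA ends, 5.81 at coding ends and 4.89 at remote peaks.

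Summits gathered at lncRNA ends once the surroundings of protein-coding ends were set aside. Within 1000 bp of a lncRNA end there were 979 summits in 53.4 Mb, or 18.3 per Mb (17.2 to 19.5). The rest of the territory over 5000 bp from coding ends, leaving out stretches of over 1 Mb without any gene record, held 13552 summits in 2355 Mb, or 5.75 per Mb (5.66 to 5.85). The density at lncRNA ends was 3.18 times that of the rest (2.98 to 3.40). Around protein-coding ends it was 122 per Mb, far above both.

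The density fell steadily with distance from the lncRNA end. It was 34.6 summits per Mb in the first 100 bp (29.9 to 39.9) and 21.9 at 200 to 300 bp. Farther out it was 12.8 between 500 and 1000 bp, 9.27 up to 2000 bp and 7.69 up to 5000 bp. Beyond 50000 bp it reached 4.71 per Mb (4.59 to 4.83). Peaks closest to the end were also the higher ones: the 193 peaks within 100 bp had a median fold of 5.66 (5.46 to 6.03), the 285 at 101 to 300 bp one of 5.43, and the 501 at 301 to 1000 bp one of 4.87 (4.75 to 5.05).

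**Figure D2:**
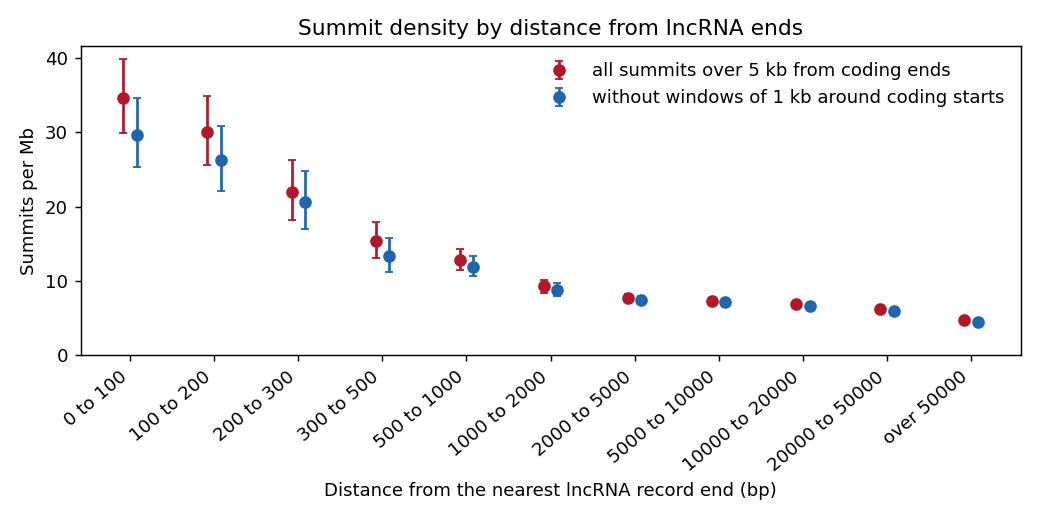
Summits per Mb (vertical axis) by distance in bp from the nearest lncRNA record end (horizontal axis, unequal steps), in territory over 5000 bp from protein-coding ends, with exact 95% Poisson intervals; red points are all summits and blue points leave out 1000 bp around protein-coding starts. The density was 34.6 per Mb in the first 100 bp and 4.71 per Mb beyond 50000 bp.

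The gathering lay at the start of lncRNA genes and was not measurable at their finish. For this comparison records over 10 kb long were taken. The lncRNA ends had no protein-coding end or start within 10 kb, but other lncRNA ends could lie near them. The protein-coding ends had no other coding end and no lncRNA end within 10 kb, and were not screened for coding starts. The filters thus differ between the lncRNA and the coding ends. Of 3560 such lncRNA starts, 147 had a summit within 1000 bp, 4.13% (3.52 to 4.83%), and the density there was 3.32 times that at 2000 to 5000 bp (2.63 to 4.20). Of 4323 lncRNA finishes, 47 had one, 1.09% (0.819 to 1.44%), with a density ratio of 1.07 (0.758 to 1.497). Protein-coding genes showed the same arrangement at a much higher level: 1653 of 4406 starts had a summit, 37.5%, with a density ratio of 28.7 (24.8 to 33.3), and 91 of 4820 finishes, 1.89%, with a ratio of 1.05 (0.832 to 1.32).

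Summits lay on both sides of the lncRNA start, 80 of them in the 1000 bp upstream and 75 in the 1000 bp downstream. At protein-coding starts the numbers were 1052 upstream and 908 downstream. Among the 979 members, the nearest end was a start for 557 and a finish for 142. For the other 280 the strand is not given in the promoter table. Starts thus made up 79.7% of the 699 nearest ends of known strand (76.5 to 82.5%). Members at starts had a median fold of 5.42 (5.27 to 5.60), against 5.21 (4.75 to 5.45) at finishes, and these intervals overlap.

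**Figure D3:**
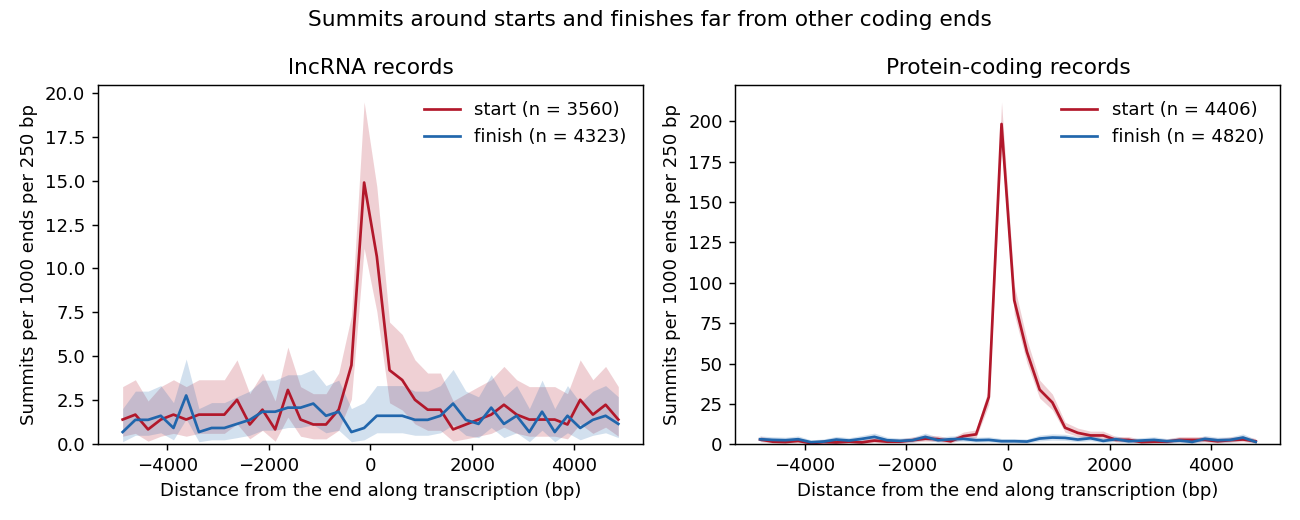
Summits per 1000 ends in steps of 250 bp (vertical axes, different scales) by distance along transcription from the start (red) or finish (blue) of a record, for lncRNA records (left; 3560 starts, 4323 finishes) and protein-coding records (right; 4406 starts, 4820 finishes), with bands for exact 95% Poisson intervals. Both kinds of record show a peak of summits at the start, 4.13% of lncRNA starts against 37.5% of coding starts having a summit within 1000 bp, and no rise is visible at the finish.

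Most lncRNA records had no member peak at an end. Of the 15515 autosomal lncRNA records with at least 1 end over 5000 bp from coding ends, 931 had a member summit, 6.00% (5.64 to 6.39%), against 8119 of 19126 protein-coding records with a summit within 1000 bp of an end, 42.5%. The coding share counts any summit, while member summits exclude those within 5000 bp of a coding end. The lncRNA share is thus a stricter count, and the size of the gap partly reflects unlike measures. Counting any summit within 1000 bp of an end, the share over all lncRNA and protein-coding records together was 29.0%. In the shares by kind, length and chromosome, a lncRNA record with a peak is one with a member summit. A single member summit was found at 843 of the 931 records, 2 at 78 records and 3 or more at 10. The other 4 of the 935 records with a member are not among the 15515, because neither of their own ends is over 5000 bp from a coding end.

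Records supported by a curated RefSeq transcript had peaks more often than those known only from predicted models, 431 of 5320 (8.10%, 7.40 to 8.87%) against 500 of 10195 (4.90%, 4.50 to 5.34%). Among names, the highest share was that of the SNHG records, the hosts of small nucleolar RNAs, with 5 of 15 (33.3%, 15.2 to 58.3%). MicroRNA host genes followed with 13 of 68 (19.1%, 11.5 to 30.01%). Records named as antisense RNAs reached 8.56%, LINC records 7.23% and the uncharacterised LOC records 5.17%. Records named as divergent transcripts (-DT) had 3.79% (2.18 to 6.50%). The rule leaves out summits within 5000 bp of a coding end, and the part of this limit in the shares by name was not tested.

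Records over 10 kb had peaks less often than those of 1 to 10 kb. The share was 7.02% up to 1 kb (4.93 to 9.90%), 8.19% at 1 to 3 kb (7.09 to 9.45%) and 7.36% at 3 to 10 kb (6.67 to 8.13%). It was 4.69% at 10 to 50 kb (4.18 to 5.26%) and 4.13% over 50 kb (3.36 to 5.08%). The interval of the shortest class overlaps those of the next 2 classes. Records with a peak had a median length of 7234 bp, against 10988 bp for those without. Curated records had a higher share than models at 1 to 3 kb, 12.8% against 6.27%, and over 50 kb, 5.36% against 2.90%, while up to 1 kb their 8.20% (4.51 to 14.4%) overlapped the 6.53% (4.22 to 9.97%) of models.

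**Figure D4:**
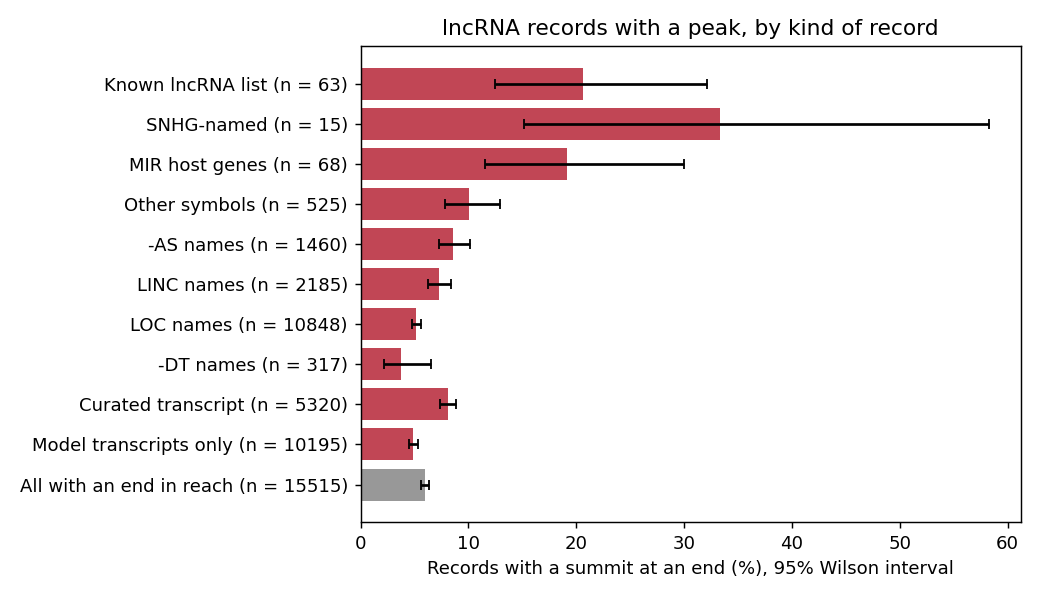
Share of lncRNA records with a member summit, by kind of record (horizontal axis, %, with 95% Wilson intervals). All are among the 15515 with an end over 5000 bp from coding ends. The axis label, a summit at an end, means a member summit. The numbers of records stand beside the names and kinds overlap. SNHG records (33.3%), the list of known lncRNAs (20.6%) and microRNA host genes (19.1%) lie above the 6.00% of all records, and their intervals are wide because they hold few records.

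Independence of the record ends did not always mean absence of a coding promoter. Leaving out chromosome 8, for which the promoter table has no starts, 109 of 951 members (11.5%) lay within 1000 bp of a protein-coding start. All 109 summits are inside a coding record and, by the rule, over 5000 bp from its ends, near a coding start that is not an end of the record. Their median fold was 5.55 (5.20 to 5.93), against 5.21 (5.02 to 5.33) for the 842 other members, and the intervals overlap. Antisense names were found for 40 of the 109 (36.7%, 28.2 to 46.1%), against 94 of the 842 (11.2%, 9.21 to 13.5%). Without these members and the territory around such starts, the density ratio was 2.97 and 5.41% of records had a peak.

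In all, 329 members (33.6%) lay inside a protein-coding record and 463 (47.3%) inside the lncRNA record itself. The median distance to the nearest coding end was 28911 bp, and 184 members were over 100000 bp from any. Most were solitary: 706 (72.1%, 69.2 to 74.8%) had no other peak within 5000 bp, against 62.8% of coding-end peaks and 77.4% of remote peaks. An end of another kind of record lay within 1000 bp of 70 members, and in 48 of these it was a pseudogene or transcribed pseudogene.

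The highest folds among the members were found beside pseudogenes. The 48 members beside a pseudogene end had a median fold of 6.65, and 9 of them (18.8%, 10.2 to 31.9%) reached a fold of 10, against 45 of the 931 others (4.83%). These 9 include 5 beside FAM86 pseudogenes and DBET beside the DUX4 array, both of which exist in near-identical copies. Copies are not independent observations, which the interval does not take into account, and the share does not describe pseudogenes in general. Of the 20 members with the highest fold, from 20.7 to 12.4, 7 lay within 1000 bp of a pseudogene end, 3 within 1000 bp of a coding start and 10 beside neither.

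LINC02449 on chromosome 12 had the highest fold of all members, 20.7 on 48 fragments (Poisson interval 35.4 to 63.6), in a peak at chr12:8242957-8243432. That summit lay 623 bp outside LINC02449 and 241 bp from the transcribed pseudogene FAM86FP. LOC105374358 on chromosome 4 had a fold of 18.9 on 35 fragments beside FAM86EP, and LINC02021 on chromosome 3 had 18.3 on 43 fragments beside FAM86HP. LOC105369250 had 15.6 on 22 fragments beside FAM86KP, and LOC102723696 had 13.5 on 27 fragments beside FAM86JP. These 5 stand among the 11 strongest members. The pseudogene end was closer to the summit than the lncRNA end in 3 of them, LINC02021 and LOC102723696 being the exceptions.

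DBET, a transcript of the DUX4 repeat array at the end of the long arm of chromosome 4, had the second highest fold, 20.4 on 34 fragments, at chr4:190068418-190068756 and 612 bp from the pseudogene DUX4L8. FAM86 records and the DUX4 array both exist in near-identical copies. The labels and notes do not say how reads that fit several copies were treated, so the assignment of these peaks to 1 copy is uncertain.

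The strongest member with neither a pseudogene nor a coding start at hand was LINC03015, with a fold of 17.1 on 89 fragments, the largest number in the set (71.5 to 110), at chr7:149113-149585 and 55 bp inside its start. MATN1-AS1, antisense to the cartilage matrix gene MATN1, had a fold of 14.3 on 80 fragments at chr1:30718109-30718930, 394 bp upstream of its start. SSH2-AS1, antisense to the cofilin phosphatase gene SSH2, had 13.6 on 24 fragments with the summit 18 bp upstream of the start printed above. LOC124905136 had 13.3 on 36 fragments 200 bp upstream of its start, and LINC01271, whose nearest coding end is that of the transcription factor gene CEBPB at 128649 bp, had 12.8 on 42 fragments 2 bp downstream of its start. In each of these 5 the peak covered or lay within 400 bp of the start.

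The others of this kind were LOC105372255 (fold 13.7), LOC124904633 (12.9), LOC107985767 (12.7), DIAPH1-AS1 (12.7) and LINC01937 (12.4), on 25 to 39 fragments. LINC01937 has TWIST2, a basic helix-loop-helix gene, as its nearest coding record, 127664 bp away. STAG3L5P-PVRIG2P-PILRB, a readthrough transcript across a pseudogene, had a fold of 13.2 on 19 fragments, its summit beside the STAG3L5P end. The 3 at coding starts were LOC100128966 (15.5 on 30 fragments), 97 bp from a start of the cell cycle phosphatase gene CDC25C, KANSL1-AS1 (12.9 on 35), 44 bp from a start of the chromatin gene KANSL1, and LOC101929626 (12.5 on 27), 102 bp from a start of the PI3-kinase subunit gene PIK3R3. For these the peak cannot be assigned to the lncRNA or to the coding promoter. Of the 20 strongest, 12 had a start as the nearest end, 1 a finish and 7 an end of unknown strand.

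Among lncRNAs known for their functions, 13 of the 63 listed records with an end in reach had a member peak, 20.6% (12.5 to 32.2%). The list held 86 names, chosen for roles in cancer and differentiation. No summit was found at an end of 52 of them, HOTAIR, H19, MEG3, CCAT1 and CYTOR among these. A further 16 had a summit at an end but with a coding end within 5000 bp of it, and 5 are not autosomal lncRNA records.

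The highest folds of this list were moderate. HCP5, in the MHC class I region, had a fold of 9.71 on 19 fragments (11.4 to 29.7), 69 bp outside its start. SNHG5 and SNHG15, hosts of small nucleolar RNAs, had 9.51 on 17 fragments and 9.16 on 31. NORAD, a cytoplasmic RNA that binds PUMILIO proteins and guards chromosome stability, had 7.42 on 11 fragments (5.49 to 19.7), 7 bp from its start. These 4 summits lay within 100 bp of an end.

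MALAT1, an abundant RNA of nuclear speckles, had a peak at each end. The peak at its start had a fold of 6.87 on 48 fragments at chr11:65497341-65497960. The peak beyond its finish had 5.95 on 71 fragments, was 1561 bp wide, the widest of the 979, and lies beside TALAM1, the antisense RNA of the locus. The background under the 2 peaks was 6.13 and 11.1 fragments, against the median of 0.972 for all members.

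DLEU1 and DLEU2 start beside each other in the region deleted in chronic lymphocytic leukaemia, and DLEU2 hosts a microRNA cluster. The peak at the DLEU1 start, inside the window printed above, had a fold of 7.46 on 10 fragments. At the outer start of DLEU2 the fold was 3.95 on 8. EPB41L4A-AS1, antisense to the cytoskeletal gene EPB41L4A, had 7.46 on 10 fragments, and NBR2 had 5.93 on 10 fragments with a coding start 135 bp away. DANCR, an RNA that holds back differentiation, and SCHLAP1, known from prostate cancer, each had 5.42 on 7 fragments (2.81 to 14.4). LINC00673 had 3.85 on 9. With 7 to 10 fragments these folds cannot be ordered among themselves.

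NEAT1, the RNA scaffold of paraspeckles, had the most member summits, 4, and all were low in fold. Their folds were 3.17, 3.09, 2.40 and 2.25, on 59, 51, 39 and 36 fragments, and the last is the lowest fold among the 979. The numbers of fragments were high, and the backgrounds, 15.5 to 17.9 fragments, were the highest of all members. The neighbouring MALAT1 peaks also stood on high backgrounds. The fold divides by the background, and the part of the background in these low folds was not tested.

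Another 9 records had 3 member summits each, of which the first 4 by name are described. LINC02029 on chromosome 3 had a fold of 9.40 on 83 fragments beyond its finish (66.1 to 103), also within 1000 bp of the start of LINC00881, and 5.36 on 29 and 4.24 on 22 at its start, which lies beside an end of LINC00880. LOC105373928 on chromosome 2, a record of 1820 bp, had 6.69, 4.69 and 4.23 on 26, 18 and 16 fragments. GASAL1 on chromosome 8 had 6.56, 4.70 and 4.24 on 25, 19 and 16 fragments. LOC105378267 on chromosome 10 had 6.10, 5.14 and 4.28 on 8, 11 and 9. In the first 3 of these records the backgrounds were 2.96 to 7.94 fragments, and in LOC105378267 they were 0.475 to 1.33.

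Hosts of small RNAs were the name classes with the highest shares of records, and their members, named here after their values were seen, covered a wide range. SNHG30 had a fold of 11.7 on 19 fragments. SNHG11 and SNHG26 had 5.30 on 11 fragments and 4.96 on 13. The 5 SNHG peaks had a median fold of 9.16. The 15 peaks of microRNA hosts had a median of 4.84 (3.75 to 7.51), below that of all members but with an interval that includes it. MIRLET7A1HG, host of let-7 microRNAs, was the highest with 11.4 on 38 fragments in a peak 1127 bp wide, and MIR23AHG the lowest with 2.76 on 22.

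LncRNA starts with a peak were richer in G+C and CpG than those without. For this, the outermost start of each gene in the promoter table was taken, over 5000 bp from coding ends and coding starts. The 455 lncRNA windows with a summit within 1000 bp had a median G+C content of 61.3% (60 to 62.7%) and 13 CpG, against 45.3% (45.0 to 45.7%) and 3 CpG in the 7256 without. A G+C content of at least 50% with a CpG ratio, observed over that from base content, of at least 0.6 was met by 39.3% with a peak (35.0 to 43.9%), against 6.99% without (6.42 to 7.60%). Protein-coding windows showed the same direction, at 87.6% with and 45.2% without a peak.

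The share of lncRNA starts with a summit rose in each step of G+C content. It was 0.492% under 40%, 2.35% at 40 to 50%, 7.103% at 50 to 60%, 20.7% at 60 to 70% and 39.4% (33.2 to 45.9%) at 70% and over. Protein-coding starts were higher in each bin, with 3.26%, 10.9%, 34.2%, 55.2% and 60.4% (58.9 to 61.9%). The gap between the classes was smaller in each bin than over all starts, where 5.90% of these lncRNA starts and 43.5% of coding starts had a summit. Peaks in CpG-rich lncRNA windows had a median fold of 5.89 (5.53 to 6.37), against 5.25 (4.87 to 5.42) in the other windows. The part of G+C content in the presence of a peak was not tested.

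**Figure D5:**
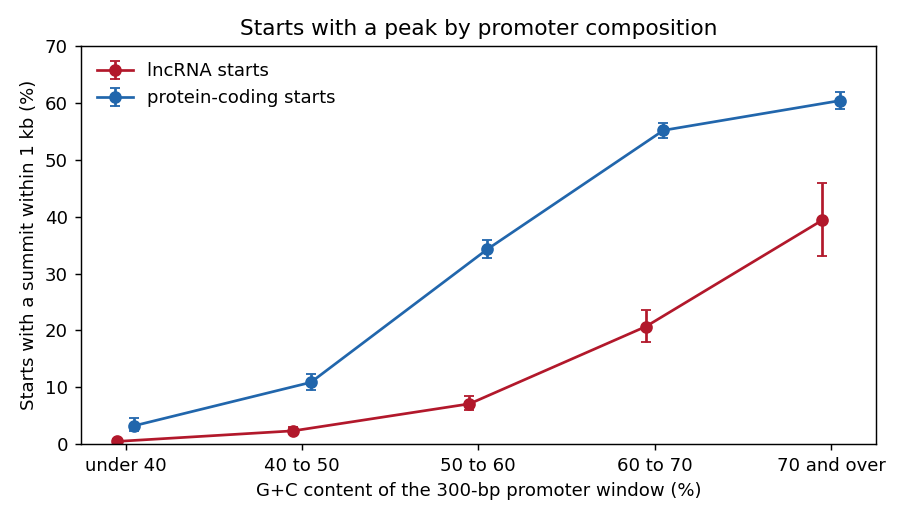
Share of starts with a summit within 1000 bp (vertical axis, %, with 95% Wilson intervals) by G+C content of the 300-bp promoter window (horizontal axis, %), for lncRNA starts over 5000 bp from coding ends and starts (red) and protein-coding starts (blue). The lncRNA share rises with G+C content, with 0.492% in the lowest bin and 39.4% in the highest, and stays below the coding share in each bin.

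Motif letters were counted in the same 300-bp windows on both strands. A window counted as having a peak when a summit lay within 1000 bp of the start, so the summit can lie outside the DNA searched. E-box letters (CANNTG) were found in 75.4% of lncRNA windows with a peak (71.2 to 79.1%), 80.1% of those without (79.2 to 81.0%) and 68.9% of all 26246 promoters. TCF/LEF letters (ATCAAAG) were in 1.98% with a peak (1.04 to 3.72%), 4.52% without and 2.64% of all promoters. Over all windows, neither of the sites that the name TCF4 stands for was more frequent with a peak than without. E-box letters are in most windows of both kinds, and these counts do not decide which sites lie under the summits. Within bins of G+C content, E-box shares with and without a peak were 87.2% against 79.6% under 50%, 82.5% against 85.2% at 50 to 60%, and 68.1% against 72.0% at 60% and over. The intervals overlap in each of the 3 bins. TCF/LEF shares in the same bins were 2.56% against 5.49%, 3.17% against 3.34% and 1.20% against 0.917%, also with overlapping intervals.

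Of 3 single E-box forms, only CACGTG had intervals with and without a peak that do not overlap. CAGCTG was in 21.1% with a peak, 17.6% without and 17.7% of all promoters. CACCTG was in 26.2% with a peak (22.3 to 30.4%), 21.7% without (20.8 to 22.7%) and 20.7% of all. CACGTG, which holds a CpG, was in 10.5% with a peak (8.05 to 13.7%), 4.22% without (3.78 to 4.70%) and 7.32% of all. The intervals of the first 2 forms overlap between windows with and without a peak, and those of CACGTG do not. For CACCTG the overlap is narrow, and the share without a peak lies below the interval of the share with a peak. In coding windows CACGTG was in 10.9% with a peak and 7.05% without. These forms were not split by G+C content, so the part of composition in the CACGTG difference was not tested. All 3 forms are also counted in CANNTG.

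AP-1 letters (TGANTCA), the site of FOS and JUN dimers, were in 14.3% of lncRNA windows with a peak (11.4 to 17.8%), 12.5% without (11.8 to 13.3%) and 7.68% of all promoters. Within G+C bins the difference was wider: 24.6% with a peak (17.9 to 32.8%) against 11.1% without (9.68 to 12.7%) at 50 to 60%, 20.5% against 14.3% under 50%, and 7.17% against 3.93% at 60% and over. The intervals were apart only in the middle bin, with 126 windows with a peak, 31 of which hold the letters. In coding windows the shares were 4.001% with a peak and 6.91% without.

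Some other letters were counted without a split by G+C content, so the part of composition in their shares was not tested. The GC box (GGGCGG), bound by SP factors, was in 45.5% with a peak, 11.2% without and 44.6% of all promoters. The ETS letters (CCGGAAG) were in 9.01%, 2.92% and 10.7%, and the NRF1 letters (GCATGCGC) in 3.74%, 0.910% and 3.22%. The CRE letters (TGACGTCA), bound by CREB and ATF factors, were in 3.52% (2.18 to 5.64%), 0.427% (0.301 to 0.606%) and 1.99%. CCAAT, bound by NF-Y, was in 26.8% with a peak, 37.0% without and 35.4% of all promoters. Within G+C bins its shares were 41.0% with a peak against 40.6% without under 50%, 24.6% against 33.7% at 50 to 60%, and 23.5% against 21.4% at 60% and over, and the intervals overlap in each bin. In coding windows CCAAT was in 39.1% with a peak and 33.7% without.

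The share of lncRNA records with a peak differed between chromosomes. It was highest on chromosome 22, 11.6% (8.39 to 15.7%), followed by 21 with 9.97% and 17 with 9.27%. It was lowest on chromosome 4, 1.86% (1.16 to 2.96%), and chromosome 8, 3.13% (2.13 to 4.58%). Protein-coding records on chromosome 4 also had a low share, 19.2%, against 42.5% over all autosomes. Over the 22 autosomes the lncRNA share followed the number of peaks per Mb (Spearman rho 0.842) more closely than the share of coding records with a peak (0.458). The chromosomes share 1 library, and these values are a description.

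Both distance limits of the rule passed through a continuous range. Just inside the 1000 bp limit stood C2orf74-AS1 (996 bp, fold 7.41), LINC02953 (995 bp, 4.04) and LOC100507336 (994 bp, 8.95), and just outside LOC107987419 (1001 bp, 3.84), LOC105373421 (1007 bp, 4.02) and LOC105370287 (1009 bp, 5.42). Just beyond the 5000 bp limit from coding ends, and so members, stood LOC107984242 (5026 bp, fold 5.01), LINC02043 (5028 bp, 5.60) and LOC124904633 (5029 bp, 12.9). Left out by it were LOC124904064 (4987 bp, 7.25), LOC124907858 (4966 bp, 4.42) and LOC105374246 (4956 bp, 5.91). The last 100 bp inside the first limit held 49 summits and the next 100 bp held 39.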

How the data were processed

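Genomic DNA of CAL-27 spheres was sequenced after pull-down with TCF4 antibody (1 library) or IgG (1 library), and the TCF4 peak list was analysed. Per the submitters' processing notes, the tools were Bowtie2 2.3.5.1, SAMtools and MACS2 2.2.7.1, on the build hg38. Settings, and whether IgG was the caller's control, are not given in the sources used. The list, as deposited, holds a fold enrichment (a ratio) with the −log10 of its p-value and of its q-value. The deposited score, a multiple of the −log10 q, was not used further.

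Whole fragments and the background were solved from fold and p with a Poisson upper tail, within 0.0001 of the −log10 p for all 26642 peaks. The lowest background was 0.475 fragments. The total depth is unknown, and precision is given per peak by exact Poisson intervals. Summits were compared with RefSeq records of GRCh38.p14, the assembly that hg38 names (17795 lncRNA and 19126 protein-coding autosomal records). Start and finish came from the RefSeq promoter table, which gives a strand for 11145 of these lncRNA records and has no chromosome 8. Exons and introns are not given because the tables used hold none. Shares carry 95% Wilson intervals, medians order-statistic intervals and ratios of densities exact conditional intervals; the scripts were tested on simulated data.

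Members and lists were chosen with earlier results of these data known. Genes were named by a rule: the 20 members of highest fold, the 5 records with most member summits (ties by name), members of the list of known lncRNAs, and members at the distance limits. Alternatives were other windows, distances, q thresholds and record sets; leaving out coding starts was added after seeing the data. Computing used Python 3.11.15 with SciPy 1.17.1, NumPy 2.4.6 and pandas 2.3.3, and figures Matplotlib 3.10.9.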

Additional observations from a re-analysis of the deposited data

How the results depend on the processing

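With a window of 500 bp there were 644 lncRNA-end peaks, a density ratio of 4.04, a median fold of 5.42, a median width of 202 bp and 4.09% of records with a peak. A window of 2 kb gave a ratio of 2.47, a width of 175 bp and 8.51% of records. Requiring 10 kb to coding ends gave a median of 9 fragments and 5.44% of records. A −log10 q of at least 5 left 420 peaks with a ratio of 4.49, a fold of 6.92, 15 fragments, a width of 292 bp and 2.68% of records; at least 10 left 153 peaks with 5.40, 8.998, 24 fragments, 405 bp and 1.03%. Without LOC records there were 408 peaks, a ratio of 4.38, a width of 202 bp and 7.93% of records. Without members beside other noncoding ends 5.61% of records had a peak. Without coding starts, an alternative chosen after seeing the data, the ratio was 2.97 and the share 5.41%. The density ratio stayed above 1 in each of these settings. The other values, including those with 2 kb to coding ends, with any overlap in place of the summit and without peaks of high background, stayed within the intervals of the values reported (counts within 1.5 times). No paired analysis was possible because there is 1 library per antibody and IgG values were not analysed. The numbers of fragments, 10 or fewer for 535 peaks, limit the ordering of single peaks.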

Other observations

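The FAM86 records, mostly near-identical gene copies and pseudogenes, were looked at as a whole after the values of the members beside them were seen. Of 15 records whose symbol starts with FAM86, 9 had a summit within 1000 bp of an end. FAM86B2-DT, a lncRNA record and not a gene copy, is counted among the 15. The folds of the strongest summit at each of the 9 ranged from 8.89 to 20.7, with a median of 15.6. The fragments numbered 14 to 55, and 8 of the folds were over 10. Of all autosomal peaks, 5.68% reached a fold of 10, a share over single peaks and not over the strongest per record. In 6 of the 9 records the strongest peak also lies at a lncRNA end and is one of the 979. The other 3, at FAM86C1P (fold 19.99 on 55 fragments), FAM86C2P (13.8 on 29) and FAM86GP (13.0 on 29), are on chromosome 11 with no lncRNA end in reach. None of the 4 FAM86 records on chromosome 8, FAM86B2-DT among them, had a summit at an end. Because the gene copies and pseudogenes resemble each other, their folds are not independent observations, and the part of reads shared between copies was not tested.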
